A study of Mus musculus with 15 samples.

Results

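Inhib-11 was a cluster of 84 inhibitory neurons of the mouse prefrontal cortex (PFC), out of 2153 inhibitory neurons in 12 clusters and 35360 retained cells of all types. Its members were the cells to which the authors' cell table gave that cluster label. There were 47 Inhib-11 cells from adult mice (P60, given as 8 to 10 weeks in the labels) and 37 from juvenile mice (P21, given as 3 weeks), and the same table classed all 84 as inhibitory. All libraries were single-cell RNA libraries captured on the 10X Chromium platform from male C57BL/6N mice, with the tissue of a pair of mice pooled for each P60 library. Of the 12 P60 libraries, 6 came from mice that self-administered cocaine and 6 from mice that self-administered saline, with 2 libraries for each treatment during maintenance, at 48 h of withdrawal and at 15 days of withdrawal. The 3 P21 libraries carry no treatment label. The titles and source names give the PFC as the region, while the tissue field of the labels reads NAc for every library.

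Cortical interneurons that release GABA arise mainly from the medial (MGE) or the caudal ganglionic eminence (CGE). A CGE-derived type, the cholecystokinin basket cell, wraps the cell bodies of pyramidal neurons and carries on its terminals the cannabinoid receptor CB1, the product of *Cnr1*, through which endocannabinoids from the target cell reduce GABA release. Some basket cells of this type also carry the peptide VIP and others the vesicular glutamate transporter encoded by *Slc17a8*.

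The libraries held between 8375172 and 42892922 UMIs (unique molecular identifiers, each a counted RNA molecule) in 1055 to 4439 retained cells. The Inhib-11 cells held 491463 UMIs at P60 and 252209 at P21, without mitochondrial and ribosomal protein genes, and a single cell held between 2370 and 21553 UMIs. Levels are given as CPM, the share of these UMIs taken by a gene and scaled to a fixed total, over all Inhib-11 cells of an age. The P60 clusters were made from the expression of these same genes and P21 cells were then assigned to them by correlation, so levels set against other clusters are a description with no test. The cells of each age were thus chosen in different ways, and the part of this in the changes with age was not tested. For tests between ages, a library with at least 10 Inhib-11 cells was a unit of its own, and libraries with fewer were summed within their treatment. This gave 3 P21 libraries of 13, 12 and 12 cells, a P60 saline pool of 17 cells from 5 libraries, P60 library 10 of 11 cells from cocaine mice at 15 days of withdrawal, and a P60 cocaine pool of 19 cells from 5 libraries. No library held both ages and no batch is labelled, so batch and age cannot be told apart. By the methods, the P60 mice, saline included, had food training, catheter surgery and daily self-administration sessions. These are not described for the P21 mice, so they cannot be told apart from age either. The paper places the surgery at P60, before self-administration and withdrawal. In summed counts, fewer cells with a gene and less RNA per cell cannot be told apart.

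The class label held against its markers. *Gad1* and *Gad2*, which encode the enzymes that make GABA, stood at 993 and 743 CPM at P60, and *Slc32a1*, the vesicular GABA transporter, at 389 CPM. The defining MGE genes were at or near 0: *Lhx6* and *Sox6* had no UMI in the 47 P60 cells or the 37 P21 cells, *Sst* stood at 2.0 CPM and *Pvalb* at 10.2 CPM at P60. *Slc17a7*, a marker of excitatory neurons, was at 10.2 CPM, the lowest of the 12 clusters at P60. Summed over 11 MGE genes the level was 234 CPM, also the lowest of the 12 clusters, and summed over 11 CGE genes it was 6458 CPM, next to the highest, of which *Cnr1*, also a basket cell gene, gave 4623 CPM.

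Inhib-11 carried a basket cell profile led by *Cck*, the gene of cholecystokinin. *Cck* stood at 12666 CPM at P60 (6225 UMIs, exact 95% Poisson interval 12354 to 12985, counting error only), against 4954 CPM in Inhib-10, 4741 CPM in Inhib-12 and a median of 807 CPM over the other 11 clusters. This P60 level pooled cells of both treatments, and the library levels differed widely. They were 24274 and 22415 CPM in cocaine libraries 9 and 10 and 2849 and 10116 CPM in saline libraries 11 and 12. In saline cells alone the ratio to the highest other cluster was 2.00, against 2.56 in all P60 cells. *Cck* was again the highest of the 12 clusters at P21, at 16126 CPM against 9020 CPM in Inhib-12. *Cnr1* stood at 4623 CPM, between Inhib-12 at 5502 and Inhib-10 at 2772 CPM, and *Sncg*, the gene of gamma-synuclein and a marker of these basket cells, at 753 CPM, between Inhib-10 at 878 and Inhib-12 at 562 CPM. The sum over 14 basket cell genes was 25577 CPM, against 16011 CPM in Inhib-12, the highest of the other clusters. Most of it came from *Cck*, *Tac2* (4708 CPM, also counted among the *Vip* cell genes below) and *Cnr1*, and 3 of the 14 genes had no UMI at P60. The lead of this sum over Inhib-12 rested on *Cck* and *Tac2*, while the list members *Cnr1*, *Krt73* and *Slc17a8* were lower than in Inhib-12.

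The CGE genes differed in their place among the clusters. *Npas1* was highest in Inhib-11 at P60, with 173 CPM against 150 CPM in Inhib-12, and *Adarb2*, an RNA-binding protein gene widely used to mark CGE interneurons, stood at 291 CPM, close to the 295 CPM of Inhib-10. *Htr3a*, the serotonin-gated channel of CGE interneurons, was at 602 CPM, between Inhib-10 at 1407 CPM and Inhib-9 at 464 CPM. *Prox1* stood at 87.5 CPM and *Nr2f2* at 165 CPM, both below Inhib-10. These levels are set beside all other clusters in the heat map of marker levels.

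**Figure D1:**
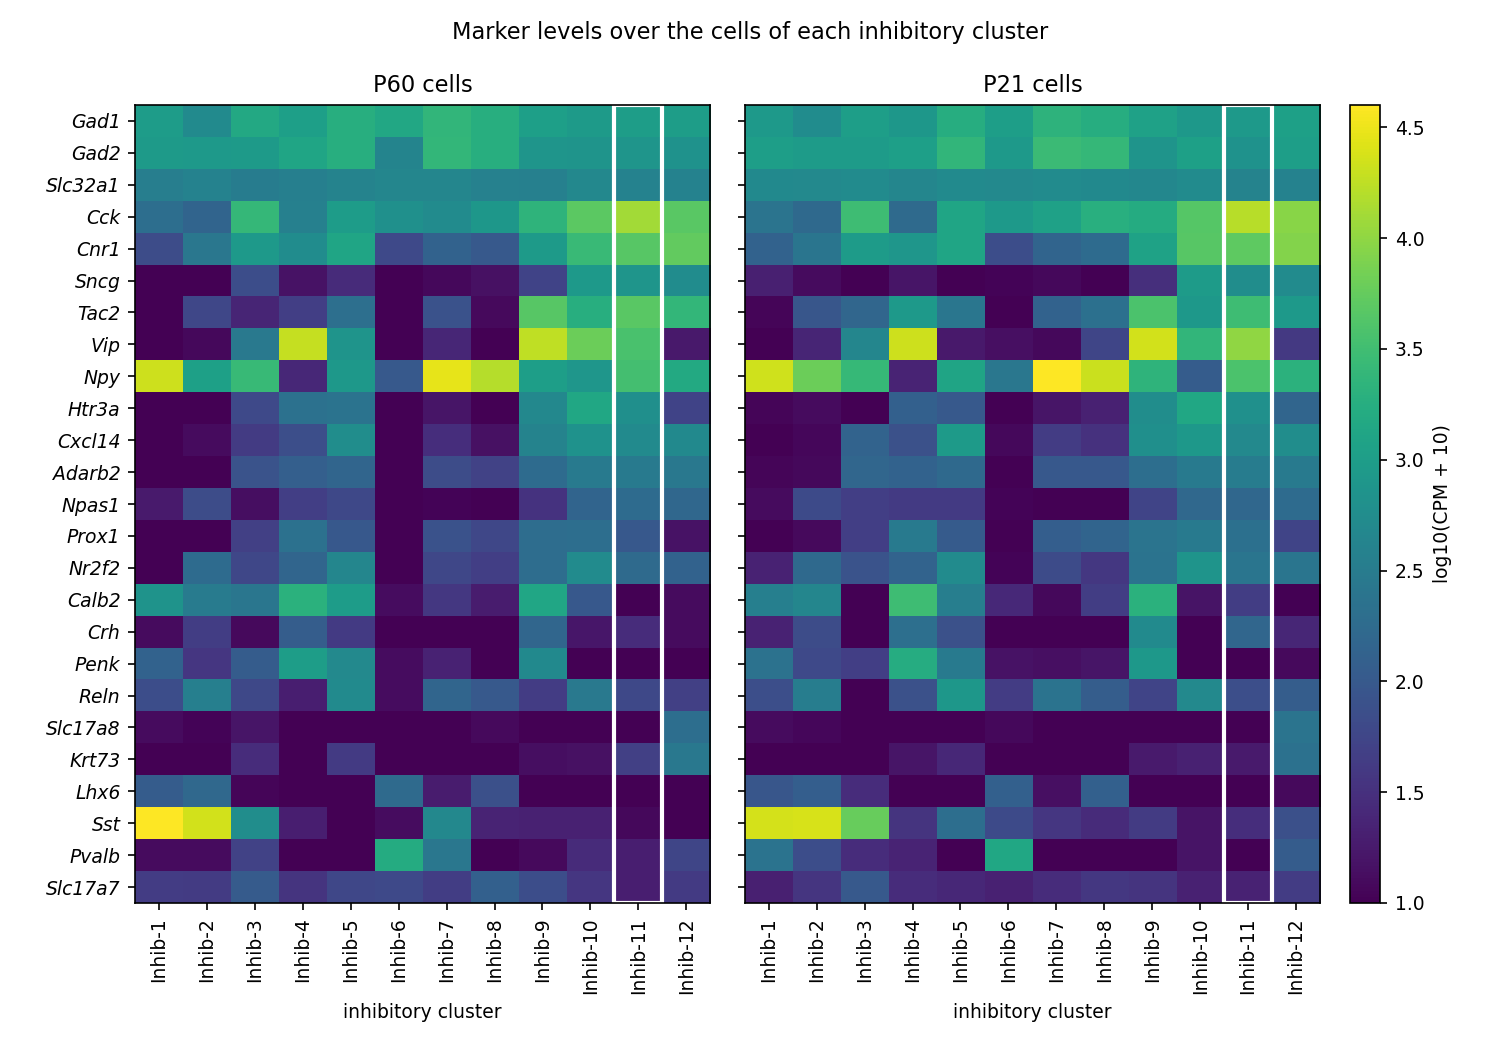
Colour gives log10(CPM + 10) of 25 marker genes in rows over the cells of each inhibitory cluster in columns, at P60 on the left and P21 on the right, with Inhib-11 outlined in white. In Inhib-11 the Cck row is the brightest of the 12 clusters at both ages, and the Lhx6, Slc17a8 and Penk rows are at the bottom of the scale.

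The genes in which Inhib-11 differed from its nearest clusters varied with the cluster. The nearest at P60 were Inhib-12, Inhib-10 and Inhib-9, with Spearman correlations of log2(CPM + 10) of 0.916, 0.911 and 0.893 over 10751 genes. At P21 Inhib-12 was again first, but the order after it was different, with Inhib-2 at 0.865, Inhib-9 at 0.860 and Inhib-10 at 0.854, and the clusters called nearest below are those of P60. *Slc17a8* had no UMI in any Inhib-11 cell at either age, against 188 CPM at P60 in Inhib-12, and *Krt73*, another gene of that cluster, stood at 38.7 CPM against 262 CPM. *Vip* stood at 3707 CPM in Inhib-11 and at 7.6 CPM in Inhib-12, but at 6093 CPM in Inhib-10 and 17733 CPM in Inhib-9. The sum over 15 *Vip* cell genes was 8975 CPM, the third highest of the 12 clusters at P60, against a median of 928 CPM, with most of it from *Tac2* (4708 CPM) and *Vip* and with 6 of the 15 genes at 0. Of these genes, *Calb2* (calretinin) and *Penk* (proenkephalin) had no UMI in the P60 cells, which allows up to 6.1 CPM each, against 1330 and 503 CPM in Inhib-9. At P21 *Calb2* had a UMI in 4 of 37 cells (35.7 CPM, beside a median of 34.6 CPM), and *Penk* in none.

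*Tac2*, the gene of neurokinin B, stood at 4708 CPM in Inhib-11, at about the level of Inhib-9 at 4652 CPM and above Inhib-12 at 2395 and Inhib-10 at 1819 CPM. *Npy*, the gene of neuropeptide Y, was at 3361 CPM, above these 3 clusters, of which Inhib-12 was the highest at 1537 CPM, and far below the 29563 CPM of Inhib-7. *Reln*, expressed in neurogliaform and other layer 1 cells, was at 50.9 CPM against 277 CPM in Inhib-10. *Lamp5* (listed as 6330527O06Rik), the marker of neurogliaform cells, was at 4.1 CPM.

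Within the cluster, *Cck* and *Cnr1* had a UMI in every cell while the other peptides had one in part of the cells. *Cck* ran from 6 to 409 UMIs per cell at P60 (median 84) and from 7 to 555 at P21 (median 65), and *Cnr1* from 4 to 151 UMIs at P60 (median 41) and from 2 to 95 at P21 (median 31). Endothelial cells had a *Cck* UMI in 25.9% of cells at P21 and 13.5% at P60 and a *Cnr1* UMI in 3.71% and 2.83%, and microglia at P21 had them in 44.7% and 14.3%, so a UMI alone does not show expression in the Inhib-11 cells with the lowest counts. *Vip* was found in 31 of 37 cells at P21 (median 22 UMIs, highest 535) and in 26 of 47 at P60 (median 1 UMI, highest 392), and after each cell was thinned to 2000 UMIs in 27 of 37 and 19 of 47. Endothelial cells, which should lack the gene, had a *Vip* UMI in 2.15% of cells at P21 and 1.23% at P60 (thinned, 0.989% and 0.478%), with median depths of 3483 and 3871 UMIs against 6691 and 9631 in Inhib-11. The 3 P60 cells with the most *Vip* held 49.3% of its P60 UMIs, and the 3 P21 cells with the most held 43.4% of its P21 UMIs.

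*Npy* was found in 38 of 47 cells at P60 (median 18 UMIs, highest 223) and in 23 of 37 at P21 (thinned, 32 of 47 and 20 of 37), against 7.66% and 8.60% of endothelial cells. Counting a cell as carrying a peptide at 10 or more UMIs, 11 of the 47 P60 cells carried both *Vip* and *Npy*, 7 carried *Vip* alone, 18 carried *Npy* alone and 11 carried neither. The cells with *Vip* and those with *Npy* overlapped in part. All 18 P60 cells with *Vip* at that level also had *Tac2* at that level, as did 21 of the 25 P21 cells. *Tac2* reached that level in 40 of all 47 P60 cells and 28 of all 37 P21 cells. *Tac2* had a UMI in 41 of 47 P60 cells and 33 of 37 P21 cells (thinned, 41 and 30), against 0.308% and 0.293% of endothelial cells. *Sncg* had a UMI in 42 of 47 P60 cells and 25 of 37 P21 cells (thinned, 33 and 18), but also in 12.1% of endothelial cells at P60 against 1.12% at P21.

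**Figure D2:**
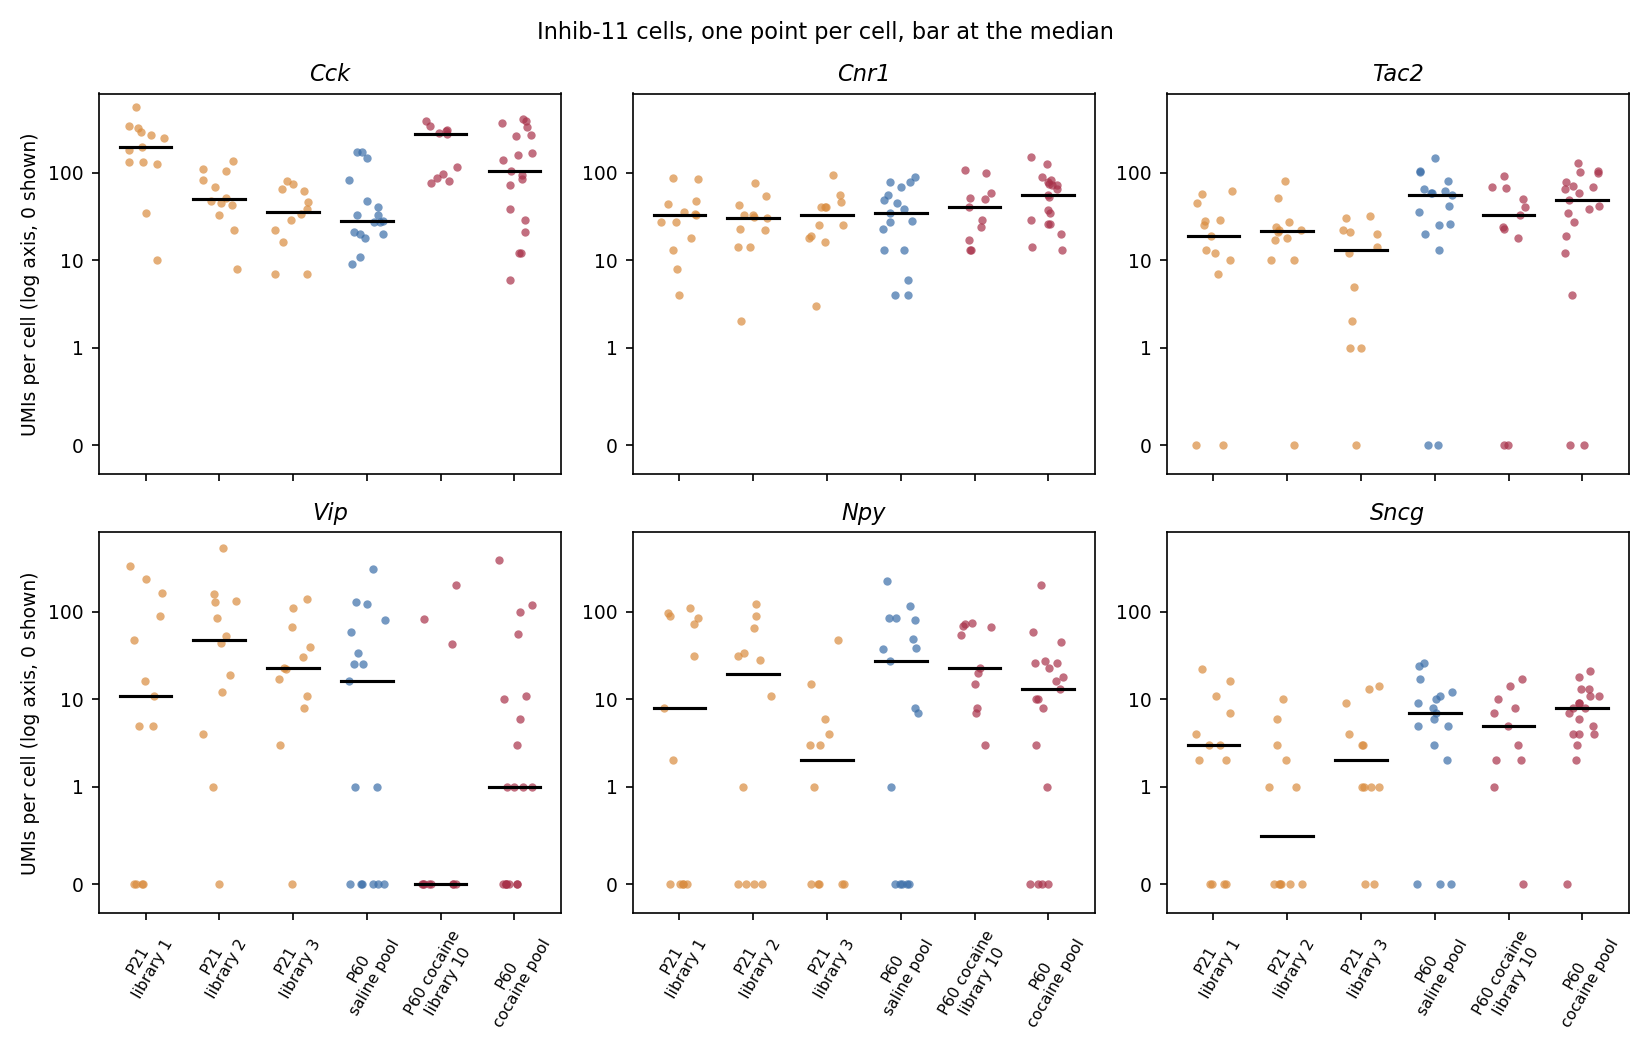
Each point is an Inhib-11 cell, placed by its unit on the x axis and its UMIs of the gene on the y axis (log axis with 0 shown), and the bar is the median of the unit. Cck and Cnr1 are above 0 in all 84 cells, while Vip is at 0 in 8 of the 11 cells of P60 library 10 and reaches 392 UMIs in the P60 cocaine pool.

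By the rule of the largest ratio to the highest other cluster at P60, 15 genes with at least 20 UMIs were taken out of 422 with a ratio above 1. *Fam107a*, an actin-associated stress-response gene, stood at 122 CPM against 45.6 CPM in Inhib-3, a ratio of 2.68, and *Cck* followed with 2.56. *Hmbox1* (2.12), *Clnk*, the sorting receptor gene *Sorcs2* (2.07) and the cation channel gene *Trpc4* (2.04) came next after *Tbc1d22b* (2.28), which had a ratio of 0.710 in saline cells alone. In saline cells alone the ratio of *Fam107a* was 1.39, that of *Cck* 2.00 and that of *Lrrc47* 1.06, which puts *Cck* above *Fam107a*. The ratios of *Rgs8* (2.83), *Clnk* (2.43), *Sorcs2* (2.27) and *Galntl4* (2.03) were above that of *Cck* in these cells. Thinned to 2000 UMIs, *Fam107a* had a UMI in 19.1% of P60 Inhib-11 cells and in 18.9% of P60 endothelial cells. The other 8 were *Hdac6*, *Lrrc47*, *E530001K10Rik*, *Mamld1*, *Rgs8*, *Galntl4*, *Dpysl5* and *Dcun1d5*, with ratios from 1.66 to 1.93. Of the 15, 7 had under 50 UMIs, and 6 were also the highest of the 12 clusters at P21. These values chose the genes and are no test of them.

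Another 10 genes were taken as the lowest against the median of the other clusters at P60. *Nxph1* (6.1 CPM against 132), *Parm1* (8.1 against 165), *Grm5* (38.7 against 150) and *Calb2* were among the 10, with *Nrgn*, *Zbtb20*, *Hpca*, *Nrsn2* and *Celf2*. At P21, 8 of the 10 were again below the median, the exceptions being *Calb2* and *Zbtb20*. Outside the 10, *Gabrb2*, a beta subunit gene of GABA-A receptors, stood at 89.5 CPM against a median of 283 CPM and was the lowest of the 12 clusters at both ages. The AMPA receptor genes *Gria3* and *Gria4* were each at 20.3 CPM at P60 and lowest of the 12 clusters at both ages.

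The level of *Cck* varied more between libraries than between Inhib-11 and its neighbours. In the 7 libraries with at least 5 Inhib-11 cells, it was 27012, 9878 and 6765 CPM in P21 libraries 1, 2 and 3, 24274 and 22415 CPM in cocaine libraries 9 and 10, and 2849 and 10116 CPM in saline libraries 11 and 12, all 4 at 15 days of withdrawal. The highest was 9.48-fold the lowest. *Cck* in other cells was also highest in P21 library 1 and lowest in library 11. The ratio of Inhib-11 to excitatory neurons stayed between 5.03 and 7.17, and the ratio to Inhib-9, Inhib-10 and Inhib-12 together between 2.30 and 3.55. In endothelial cells, *Cck* was 604 CPM in P21 library 1 and 41.3 CPM in library 11, and its part in these levels was not tested.

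**Figure D3:**
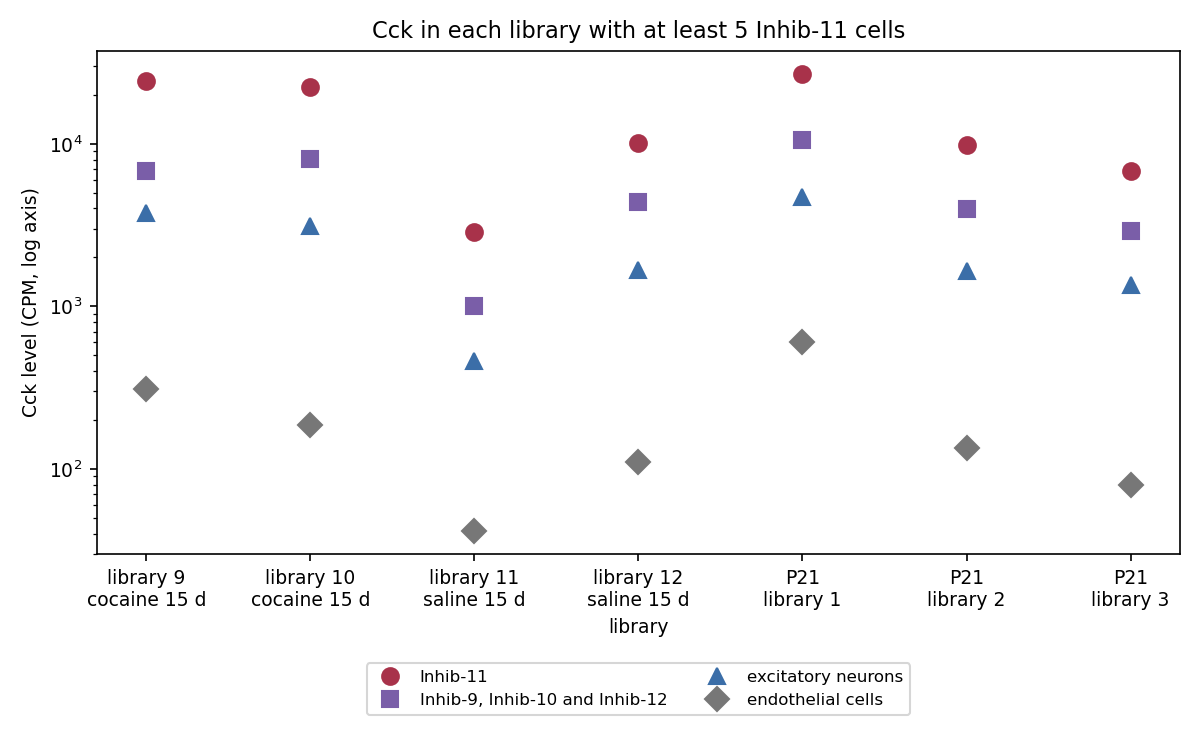
Points give the Cck level (CPM, log axis) in Inhib-11, its 3 nearest clusters, excitatory neurons and endothelial cells for each of the 7 libraries with at least 5 Inhib-11 cells. In all 4 series library 11 is the lowest and P21 library 1 the highest, and Inhib-11 lies above excitatory neurons by 5.03 to 7.17-fold in each.

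The share of Inhib-11 among inhibitory neurons spread widely at P60. The share was 4.48%, 3.99% and 3.23% in the P21 libraries (mean 3.90% ± 0.628, SD, n = 3) and ran from 0% to 10.7% in the 6 saline P60 libraries (mean 4.00% ± 3.83, SD, n = 6). The difference did not pass an exact two-sided permutation test over libraries (0.0991 percentage points, p = 0.988), and it turned negative without saline library 2 (-0.153), without saline library 3 (-1.24) or without P21 library 3 (-0.234). In saline library 5 there were 0 of 59 cells, which allows a share of up to 5.08%. As a share of all neurons the means were 0.566% ± 0.0883 at P21 and 0.239% ± 0.176 in saline P60 mice, a difference of -0.327 percentage points (exact permutation p = 0.0357, not adjusted). Inhibitory neurons as a class were 290 of 2622, 301 of 1804 and 371 of 2233 neurons in P21 libraries 1, 2 and 3. In the saline P60 libraries they were 19 of 340, 28 of 662, 59 of 744, 109 of 1231, 204 of 2754 and 144 of 1537 neurons. The part of this lower share of the whole class in the difference was not tested. The cocaine libraries held 4.81% ± 2.50 (SD, n = 6) of inhibitory neurons, which did not differ beyond the spread from the saline libraries (exact permutation within time points, p = 0.602). Shares are of retained cells, so loss of cells in dissociation cannot be told apart from their number in tissue. The mouse numbers given below do not allow 3 separate P21 pools, and shares were not tested with P21 libraries summed.

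Inhib-11 cells were deeper at P60, as were those of the 11 other clusters by their median UMIs per cell over all libraries. The median UMIs per cell of the units were 8889, 6626 and 6402 at P21 (mean 7306 ± 1376, SD, n = 3) and 11057, 10806 and 13438 at P60 (mean 11767 ± 1453, SD, n = 3), with no overlap. The exact permutation p of 0.1 is the smallest that 3 units against 3 can give, and with the saline pool alone (difference 3752) it is 0.25, again the smallest possible.

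From P21 to P60, more called genes of Inhib-11 fell than rose, with *Marcksl1*, *Zbtb20*, *Nov*, *Nav1* and *Ap1s2* the largest called falls. The saline mice gave a single unit, so all 3 P60 units, of which 2 are from cocaine mice, entered the test against the 3 P21 libraries. Of 2073 genes tested, 41 were called at an adjusted p under 0.05 and a change over 1.5-fold (1.98%; edgeR quasi-likelihood test, Benjamini-Hochberg), with 12 higher at P60 (0.579%) and 29 lower (1.4%), while 344 had an unadjusted p under 0.05. Units of the ages did not overlap in 40 of the 41, beside 19.9% of all tested genes. The methods give 4 mice for P21 and 2 mice per pool, so the 3 P21 libraries cannot all be separate pools, and which of them share mice is not given in the sources used here; with P21 libraries 2 and 3 summed, 35 genes were called, 29 of the 41 among them. Without the P60 cocaine pool 13 genes were called, without P21 library 3 22, without P21 library 1 89, and without any pool, with library 10 as the only P60 unit, 6. Against the saline pool alone, where the spread comes from the P21 libraries and the single P60 unit is assumed to vary like them, 17 of the 41 were called.

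*Marcksl1*, which encodes an actin-regulating substrate of protein kinase C that is abundant in growing neurites (chr4:129190825-129193229 in mm9), stood at 143, 236 and 239 CPM in the P21 libraries and at 24.4, 19.1 and 9.0 CPM in the saline pool, library 10 and the cocaine pool. Its P21 units all lay above its P60 units, and the log2 change was -3.59 ± 0.489 (SE; adjusted p = 3.0e-05). The P60 levels rest on few UMIs, with *Marcksl1* in 7 of 47 cells and at most 2 UMIs in a cell, against 24 of 37 cells at P21. Microglia had a *Marcksl1* UMI in 54.1% of cells at P21 and 15.9% at P60, and endothelial cells in 11.8% and 2.30%. The part of this in the fall was not tested. *Zbtb20*, a transcriptional repressor gene (chr16:42875994-43642715, overlapping other annotated genes on both strands), went from 153, 289 and 450 CPM to 24.4, 57.3 and 27.0 CPM, a log2 change of -3.12 ± 0.419 (adjusted p = 3.0e-05). It was called under all 16 other settings, and *Marcksl1* under all 15 that tested it. *Nov*, the gene of a secreted matricellular protein, went from 191, 394 and 253 CPM to 30.4, 85.9 and 36.0 CPM (log2 change -2.61 ± 0.382, adjusted p = 8.3e-05). *Ap1s2*, a subunit of the clathrin adaptor AP-1, went from 677, 695 and 703 CPM to 128, 248 and 148 CPM (log2 change -2.09 ± 0.242, adjusted p = 4.2e-06). In each of these 4 genes the lowest P21 library lay above the highest P60 unit.

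The CGE transcription factor genes *Sp8* and *Prox1* both fell. *Sp8* was at 248, 131 and 211 CPM at P21 and at 73.1, 66.8 and 49.4 CPM at P60 (log2 change -1.74 ± 0.352, adjusted p = 0.0048), and *Prox1* at 219, 210 and 169 CPM against 54.8, 105 and 103 CPM (log2 change -1.25 ± 0.329, adjusted p = 0.042, called under 6 of the 16 other settings). Of 11 CGE genes, 9 could be tested and these 2 were called, with a median log2 change of -0.19, beside 0.0021 and 1.4% called lower over all tested genes. Not called were *Adarb2* (log2 change -0.18), *Npas1* (0.14), *Nr2f2* (-0.59), *Htr3a* (-0.14) and *Cnr1* (-0.19).

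Among peptide genes, *Vip* and *Scg2* fell. *Vip* was at 8581, 15336 and 6610 CPM in the P21 libraries and at 4853 CPM in the saline pool, 3111 CPM in library 10 and 3142 CPM in the cocaine pool. The lowest P21 library lay above the highest P60 unit (log2 change -1.50 ± 0.293, adjusted p = 0.023, called under 9 of the 16 other settings). This separation held for pooled units and not for single libraries, with saline library 12 above P21 libraries 1 and 3 in CPM. As another measure, the median *Vip* UMIs per cell, not scaled for depth, were 11, 48 and 22.5 in P21 libraries 1, 2 and 3. They were 11, 0, 13 and 48.5 in P60 libraries 9, 10, 11 and 12. *Scg2*, the secretogranin II gene of dense-core vesicles, went from 667, 879 and 731 CPM to 420, 344 and 261 CPM (log2 change -1.20 ± 0.224, adjusted p = 0.0019). Of 28 peptide genes, 8 could be tested, and these 2 were called, beside 1.4% called lower over all tested genes. *Cck* at -0.14 ± 0.822, *Npy* at -0.07 ± 0.672 and *Tac2* at 0.56 ± 0.192 (adjusted p = 0.13) did not pass. None of the 7 testable basket cell genes was called, beside 1.98% of all tested genes, *Sncg* among them at 0.37 ± 0.242.

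Of 24 axon growth and immature neuron genes, 13 could be tested, 2 were called lower and none higher, and 12 of the 13 lay below 0 (median log2 change -0.39, beside 0.0021 and 1.4% called lower over all tested genes). The 2 were *Marcksl1* and *Stmn2*, a microtubule-destabilising growth cone gene, which went from 2012, 2099 and 2447 CPM to 1261, 1403 and 1452 CPM (log2 change -0.71 ± 0.166). *Gap43*, another growth cone gene, was at 1163, 1955 and 2349 CPM against 1291, 1116 and 1187 CPM and did not pass (-0.63 ± 0.197, adjusted p = 0.0995). Called falls outside these lists included *Nav1* (-2.11 ± 0.354) and *Pcp4*. *Pcp4*, a calmodulin regulator overlapped by *Igsf5* on the same strand, fell from 3042, 2624 and 2405 CPM to 1236, 639 and 661 CPM (-1.71 ± 0.215).

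The genes that rose were of mixed function. *Snhg11*, a long non-coding RNA of neurons, rose from 3251, 2361 and 2349 CPM to 5036, 5926 and 5323 CPM (log2 change 0.98 ± 0.183, adjusted p = 0.0019). *Col25a1*, a transmembrane collagen, rose from 229, 157 and 211 CPM to 420, 401 and 459 CPM (1.04 ± 0.240, adjusted p = 0.018). The stress-response factor gene *Ddit3*, overlapped on the other strand by *Mars*, rose by 1.77 ± 0.388, the synaptic vesicle gene *Syngr1* by 1.56 ± 0.378 and the carbonic anhydrase gene *Car2* by 1.37 ± 0.361. *H2-Ke2* (1.49), *Zcchc12* (1.28), *E530001K10Rik* (1.16), the creatine kinase gene *Ckb* (0.96), *Ssu72* (0.92), *Rgs10* (0.91) and *Psmc5* (0.91) made up the rest. Of 15 genes typical of adult neurons, 10 could be tested, and *Snhg11* was called higher while *Camk2n1* was called lower (-1.52), beside 0.579% called higher and 1.4% lower over all tested genes.

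**Figure D4:**
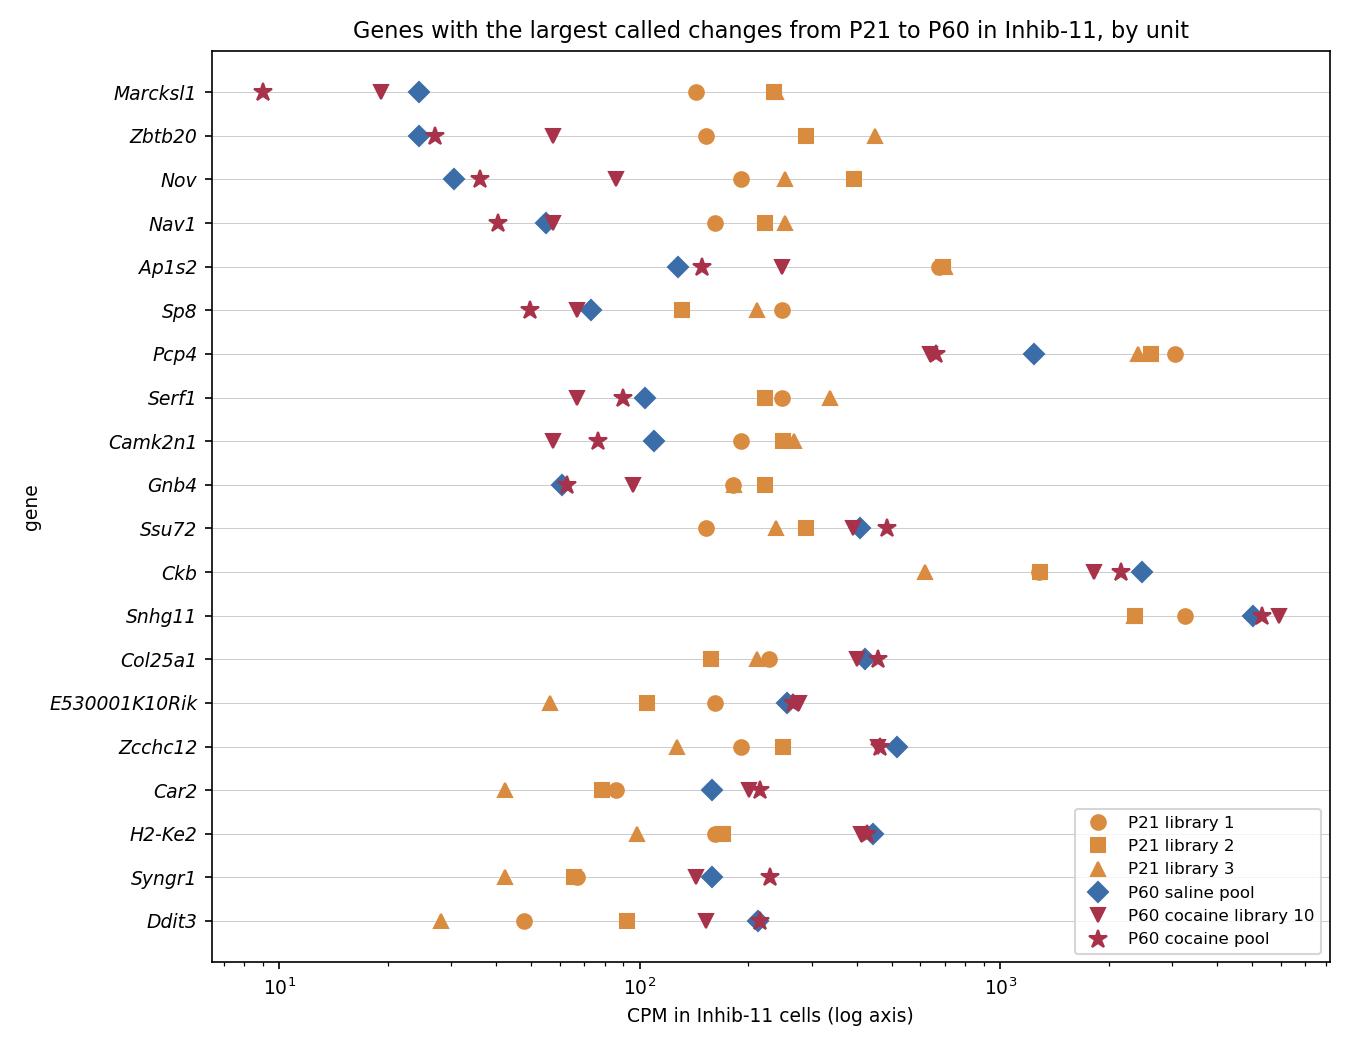
Points give the CPM (log axis) of the 10 genes with the largest called fall and the 10 with the largest called rise in each of the 6 Inhib-11 units, with P21 libraries in orange, the P60 saline pool in blue and P60 cocaine units in red. In the upper rows the P21 points lie to the right of the P60 points, and in the lower rows to the left.

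Genes of other cell types were summed in the same units, and their part in the age changes was not tested. The sum over 11 excitatory neuron genes was 118 to 257 CPM in the P21 units and 153 to 219 CPM in the P60 units, and that over 10 microglia genes 28.1 to 114 and 28.6 to 71.9 CPM. The endothelial and mural genes summed to 28.1 to 617 CPM in the P21 units and to 22.5 to 60.9 CPM in the P60 units, with the highest sum in P21 library 2, and *Flt1* had 6 UMIs at P21 and none at P60. The oligodendrocyte genes summed to 113 to 238 CPM at P21 and 115 to 268 CPM at P60, and the astrocyte genes to 551 to 577 and 584 to 834 CPM. None of the genes of the excitatory, microglia, endothelial and oligodendrocyte lists reached the level needed for the age test.

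The change with age was then compared with that of the other inhibitory clusters, in a fit with both parts of each unit. Of 8582 genes, 103 differed (1.2%), with 44 more positive in Inhib-11 (0.513%) and 59 more negative (0.687%), while 864 had an unadjusted p under 0.05. The other cells changed in makeup between the ages. Over all libraries, Inhib-1, Inhib-2 and Inhib-6 made up 65.0% of the 925 other cells at P21 and 16.8% of the 1144 at P60. Their part in these differences was not tested. The P60 cell counts here and below include saline library 5 (59 inhibitory neurons), which had no Inhib-11 cell and did not enter the fit. The count of called genes was 47 without the P60 cocaine pool, 66 without the saline pool, and 64 and 55 without P21 libraries 1 and 2. The difference was not fitted with P21 libraries summed. Against Inhib-9, Inhib-10 and Inhib-12 alone, which made up 15.0% and 20.7% of the other cells, 20 of 4971 genes differed (0.402%; 9 more positive, 0.181%, and 11 more negative, 0.221%; 488 at an unadjusted p under 0.05), and 13 genes were called in both fits. These clusters changed in makeup too: Inhib-12 gave 44 of their 139 cells at P21 and 30 of 237 at P60, Inhib-9 gave 63 and 145, and Inhib-10 gave 32 and 62. The part of this change in the differences was not tested, and levels by cluster are given for *Cnr1*, *Col25a1*, *Zbtb20* and *Vip*.

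The change of *Cnr1* differed between Inhib-11 and the nearest clusters. In Inhib-11 it was at 4415, 4919 and 5977 CPM in the P21 libraries and at 3983, 4781 and 5021 CPM in the P60 units, and the ages overlapped. In the nearest clusters it went from 4978, 5867 and 5827 CPM to 2556, 2910 and 2328 CPM. By cluster, *Cnr1* stood at 8573 CPM at P21 and 5502 CPM at P60 in Inhib-12, at 4645 and 2772 CPM in Inhib-10 and at 1162 and 900 CPM in Inhib-9. The difference of the changes from the pooled clusters was 0.94 ± 0.144 on the log2 scale (adjusted p = 6.0e-04). Against all other clusters it was 0.32 ± 0.154 and did not pass (adjusted p = 0.45).

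*Col25a1* rose in Inhib-11 and in the pooled nearest clusters went from 307, 296 and 369 CPM to 237, 198 and 136 CPM, a difference of 1.88 ± 0.283 (adjusted p = 6.0e-04). By cluster, it was nearly level in Inhib-12 (520 CPM at P21 and 524 CPM at P60) and Inhib-9 (16.3 and 18.5 CPM), and stood at 298 and 205 CPM in Inhib-10. *Zbtb20* fell more in Inhib-11 than in the pooled nearest clusters, where it went from 166, 189 and 257 CPM to 106, 96.3 and 122 CPM (difference -2.26 ± 0.416, adjusted p = 0.0055). By cluster, *Zbtb20* stood at 394 and 197 CPM in Inhib-9 and at 115 and 47.3 CPM in Inhib-10. It also fell strongly in Inhib-12, from 127 to 20.4 CPM, beside 278 to 32.6 CPM in Inhib-11, so a strong fall was not particular to Inhib-11. *Ap1s2* (-1.36 ± 0.261) and *Scg2* (-1.11 ± 0.244) also differed in that fit, in the direction of the fit against all clusters. *Marcksl1* (-1.80 ± 0.507, adjusted p = 0.14), *Nov* (-1.14 ± 0.472), *Sp8* (-1.02 ± 0.399) and *Prox1* (-1.23 ± 0.401) differed against all clusters and did not pass against the nearest ones. *Vip* was at 4194, 12230 and 5516 CPM at P21 and 10051, 6895 and 11113 CPM at P60 in the nearest clusters, and its difference of -1.90 ± 0.294 did not pass (adjusted p = 0.069). By cluster, *Vip* stood at 22733 CPM at P21 and 17733 CPM at P60 in Inhib-9, at 2369 and 6093 CPM in Inhib-10 and at 29.3 and 7.6 CPM in Inhib-12.

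The list of CGE genes depended on the comparison. Against all other clusters 4 of 11 tested CGE genes were more negative in Inhib-11 (median difference -0.66, beside 0.064 and 0.687% over all genes). Against the nearest clusters none of 9 was, beside 0.221%, while *Cnr1* was more positive, beside 0.181% (median 0.09 beside 0.0089). The nuclear respiratory chain genes were more positive in Inhib-11 in 7 of 63 against all clusters (median 0.47), beside 0.513% of all genes. Against the nearest clusters it was 1 of 63 (median 0.21), beside 0.181%, that gene being *Cycs*, the cytochrome c gene, at 0.78 ± 0.183. None of the 62 testable ones was called for age within Inhib-11, where their median was 0.16, beside 1.98% called and a median of 0.0021 over all tested genes. Among endothelial and mural genes, *Flt1*, *Itm2a* and *Ly6c1*, 3 of 6 tested, were more negative against all clusters, beside 0.687% of all genes, and the sums of this list in the units are given above. The excitatory neuron gene *Nrgn* was more negative in both fits (1 of 5 tested genes of its list against all clusters and 1 of 4 against the nearest, beside 0.687% and 0.221%), and the myelin gene *Mbp* was more positive against all clusters (1 of 7 oligodendrocyte genes, with 6 of 7 above 0, beside 0.513%).

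**Figure D5:**
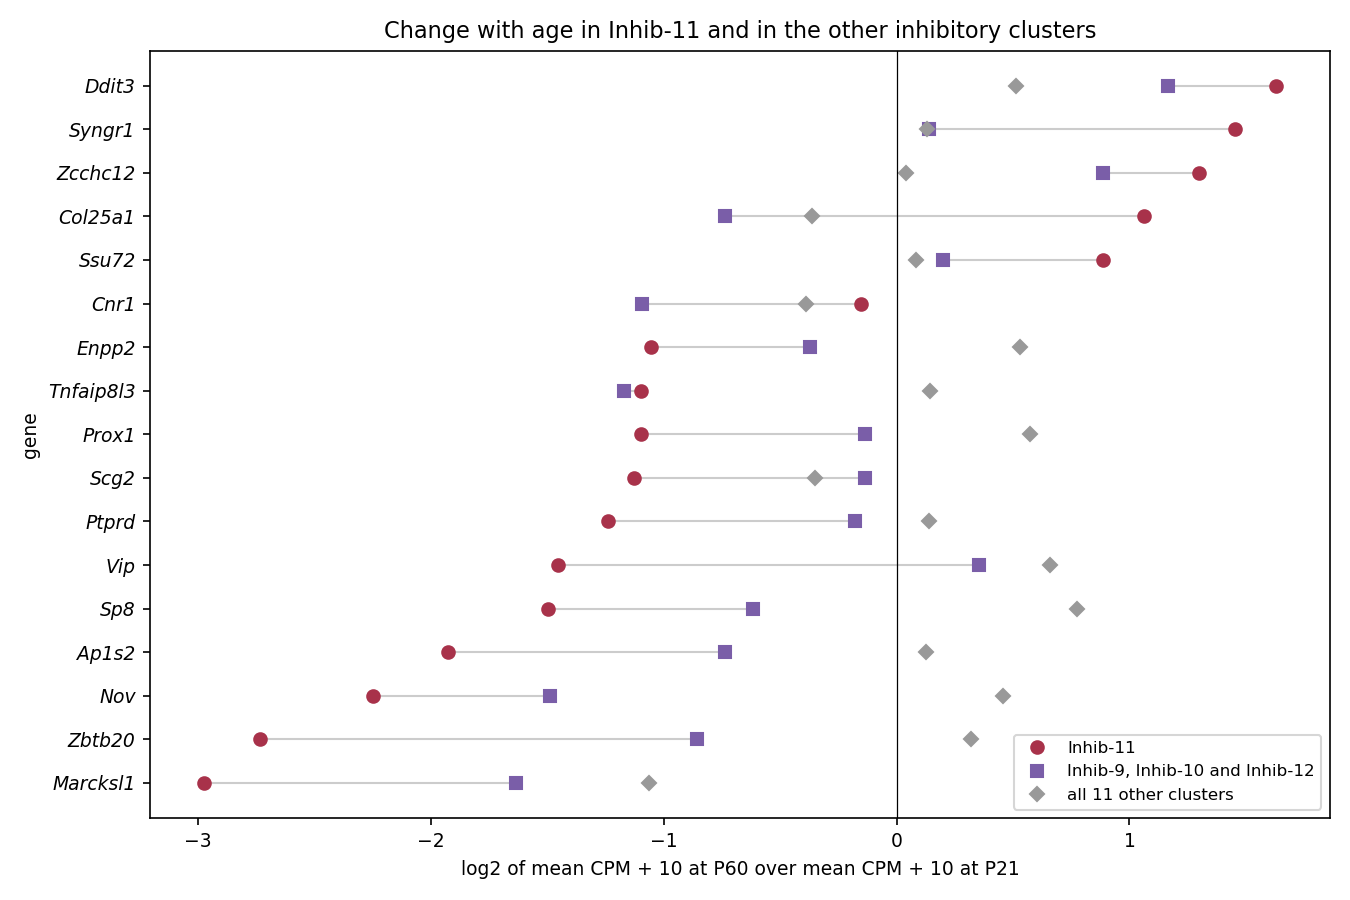
Points give the log2 ratio of mean CPM + 10 over the P60 units to that over the P21 libraries in Inhib-11, in its 3 nearest clusters and in all 11 other clusters, for the 15 genes called for age that also differed from the other clusters, and for Cnr1 and Vip. Col25a1 lies right of 0 in Inhib-11 and left of 0 in both comparison groups, and Vip lies left of 0 in Inhib-11 and right of 0 in both, where the mix of clusters also changed with age.

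Cocaine was not tested against saline in units of at least 10 cells, where the saline cells made a single unit and at least 2 units for each treatment were asked for. With the minimum lowered to 5 cells, which gives 3 units for each treatment, none of 1605 genes was called by edgeR (0%), 99 had an unadjusted p under 0.05, and DESeq2 called none either. Between 0 and 3 genes were called when a unit was left out, the 3 without the cocaine pool and 1 each without library 12 and without the saline pool. *Cck* differed by 1.64 ± 0.888 (SE) on the log2 scale (adjusted p = 0.87), over libraries 9, 10, 11 and 12, whose levels are given above, and a pool of the smaller libraries of each treatment.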

How the data were processed

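The authors aligned the reads to mm9 with Cell Ranger and deposited UMI counts per gene and cell for each library, with a cell table that also gives the mitochondrial fraction of each cell. They removed cells with a high mitochondrial share, few genes or, as likely double droplets, very many genes, and no further doublet caller was run here. A pair of libraries shared at most 40 cell barcodes. Counts of the Inhib-11 cells were summed by unit without 13 mitochondrial and 142 ribosomal protein genes, leaving 25990 genes. Age and its difference between clusters were tested with edgeR 4.0.16 (R 4.3.3; TMM, filterByExpr, quasi-likelihood, unit as a block in the difference), and shares and depth with exact permutation tests (scipy 1.17.1). The SE of a log2 change was derived from its F statistic. Replicates are libraries or pools of libraries, and p-values measure the spread between these units. Alternatives were DESeq2 1.42.0, its size factors, no filter, other units and left-out units.

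Named genes were the 15 highest and 10 lowest by ratio at P60, members of 37 lists, the 10 largest called changes in each direction of each test and genes that the study names for inhibitory clusters, and 1 of the 10 lowest is not reported here. The members and lists were chosen with earlier results of these data known. On simulated data, 57% of 200 genes changed by a log2 of 1 were called for age (1897 genes in the step) and 90.5% at a log2 of 2 (1910 genes), against 14% (8265 genes) and 46% (8238 genes) for the difference.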

Additional observations from a re-analysis of the deposited data

Results flagged for a closer look

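Of the 41 genes called for age in Inhib-11, 15 also changed differently from the other inhibitory clusters by the interaction test, out of 103 genes with such a difference in all and 59 among the 2073 genes tested for age. Both tests use the same Inhib-11 counts, so this overlap is not independent. The log2 difference was negative for *Zbtb20* (-3.36), *Nov* (-3.18), *Sp8* (-2.71), *Marcksl1* (-2.31), *Ap1s2* (-2.12), *Prox1* (-1.83), *Enpp2* (-1.70), *Ptprd* (-1.52), *Tnfaip8l3* (-1.50) and *Scg2* (-0.76). It was positive for *Col25a1* (1.63), *Syngr1* (1.58), *Ddit3* (1.40), *Zcchc12* (1.34) and *Ssu72* (0.97). Against Inhib-9, Inhib-10 and Inhib-12 alone, 6 of the 41 genes called for age differed.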

How the results depend on the processing

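In place of 41 genes for age, DESeq2 called 23, no filter on low counts 66, no pools 6 and saline P60 cells summed by labelled group 63, and leaving out a unit gave 13 to 89. The saline labelled groups held 4 cells at maintenance, 1 cell at 48 h of withdrawal and 12 cells at 15 days. A single cell thus stood as a unit in that setting, and these groups also entered the cocaine fit with labelled groups. In place of 103 genes for the difference between clusters, DESeq2 called 20 and the nearest clusters (chosen after seeing the data) 20. Leaving out a unit gave 47 to 111 for this difference. For cocaine, 0 genes were called with labelled groups and time point as a block, 0 at a minimum of 5 cells by edgeR, by DESeq2 or with its size factors, 3 without a filter, and 0 to 3 when a unit was left out. The difference in share was 0.0991 percentage points of inhibitory neurons and -0.327 percentage points of all neurons, which are different bases. Leaving out a library gave -1.24 to 0.899 for the share of inhibitory neurons. *Tbc1d22b* turned to a ratio of 0.710 in saline cells. Causes were not tested. Other settings, also chosen after seeing the data, were the saline pool alone (35 genes for age) and saline units of at least 5 cells (61), where 17 of 41 and 24 of 34 testable genes were called. All 41 kept their sign in each setting that tested them, 15 were called in at least 13 of 16, and 225 gene values for age lost the call while 420 kept it. No paired analysis was possible because replicate numbers were given in accession order.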
